A study of Homo sapiens with 4 samples.

Results

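The transcripts described here belong to 49 genes of the DNA replication machinery of THP1, a human monoblastic acute myeloid leukaemia (AML) cell line that carries the MLL-AF9 fusion gene. The genes were chosen by function, from the origin recognition complex to the enzymes that supply nucleotides, and every non-control array probe that carried the name of such a gene was taken. All 49 genes were on the array, with 63 of its 34127 probes. Each of the 63 probes was well above background on all 4 arrays and was therefore part of the 22638 probes tested.

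THP1 cells had been transfected once with 30 nM of a miRNA mimic, a short synthetic duplex that acts as the mature miRNA, and RNA was taken on day 2. One group received miR-511-5p mimic and the other received negative control #1 mimic, and both were kept in DMEM and Ham's F12 medium with little serum. There were 2 experiments, and each gave 1 array of each mimic, so that 4 single-dye Agilent arrays of 1 slide make up the data. All values come from 1 cell line, and each group of arrays holds 2, so that spread within a mimic group is that between the 2 experiments. Where the experiments are compared, the spread is that between the 2 arrays of an experiment, which differ in mimic. Array measurements of a cell population cannot tell fewer cells in S phase from less RNA per cell.

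Replication starts at origins, where the origin recognition complex together with CDC6 and CDT1 loads the MCM helicase in G1. The kinase CDC7 with its partner DBF4, and the CDC45 and GINS proteins, then turn the loaded helicase into an active fork, on which primase and the DNA polymerases copy both strands. Many of these genes are transcribed ahead of S phase under the control of E2F factors, and in leukaemia cell lines their transcript levels go along with the share of cycling cells.

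The mature miRNA whose mimic was given is shown first because it is the agent of the main comparison. RefSeq (GRCh38.p14) places it at chr10:17845122-17845142 on the plus strand, and the capitals mark its seed, bases 2 to 8 from the 5′ end. Target sites of this seed in the replication transcripts were not analysed here.

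hsa-miR-511-5p: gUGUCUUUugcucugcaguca

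A feature that the choice of genes did not use is the sequence of their promoters. RefSeq promoters of 300 bases (250 before to 50 after the gene start, GRCh38.p14) were at hand for 43 of the 49 genes, in 58 windows. The E2F words searched were TTTCCCGC, TTTCGCGC, TTTGCCGC and TTTGGCGC on both strands, where words on opposite strands may overlap. Such a word stood in 22 of the 58 windows (37.9%), against 3.31% of all 35116 promoter windows. By gene, 22 of the 43 replication genes (51.2%) had a word in at least 1 window, against 3.99% of all 27305 genes with a promoter window. The CCAAT box, searched as CCAAT on both strands, stood in 51.7% of the windows of these genes and in 34.6% of all windows. A match of letters is a description and says nothing of binding in these cells.

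The windows below are those of the genes whose array values are given in full further on and that hold an E2F word. They are 30 bases long, read 5′ to 3′ on the strand of the gene, with the word in capitals, and of several words in a gene the one nearest to its start is shown.

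POLE, chr12:132687342-132687371, minus strand: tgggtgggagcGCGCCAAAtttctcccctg
TYMS, chr18:657603-657632, plus strand: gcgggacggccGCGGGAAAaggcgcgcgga
LIG1, chr19:48170440-48170469, minus strand: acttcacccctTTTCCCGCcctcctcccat
CDT1, chr16:88803743-88803772, plus strand: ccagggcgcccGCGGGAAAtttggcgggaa
CDC7, chr1:91501067-91501096, plus strand: tccgacctgcgGCGGGAAAgtcgcgcgcct
MCM6, chr2:135876511-135876540, minus strand: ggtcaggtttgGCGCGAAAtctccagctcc
GINS1, chr20:25407667-25407696, plus strand: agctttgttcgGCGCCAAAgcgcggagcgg
GINS2, chr16:85688967-85688996, minus strand: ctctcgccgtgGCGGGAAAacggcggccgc
RFC3, chr13:33818083-33818112, plus strand: atttggagctcGCGGGAAAacttgtctctg

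Among the genes shown, the same 8 letters GCGGGAAA stand in the windows of TYMS, CDT1, CDC7, GINS2 and RFC3, and LIG1 has them on the other strand. MCM10, RRM2, ORC2 and TK1 had no E2F word in their promoter windows.

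The first comparison asks whether the miR-511 mimic altered the transcripts of the replication machinery. No replication gene passed the unadjusted threshold of p below 0.05 in either direction, where a gene stands by its tested probe with the highest mean. Over all tested probes, 1.27% were called higher and 0.932% lower at that threshold. After Benjamini-Hochberg adjustment in limma 0 of the 49 genes and 0 of all tested probes (0%) passed, and the adjusted p of every replication gene rounded to 1. The differences of the 49 genes had a median of 0.038 on the log2 scale and ran from -0.43 to 0.26, where a value above 0 is a higher level with miR-511 mimic. They were above 0 for 33 genes and below 0 for 16. Over all tested probes the median was 0.0098, and 53.7% were above 0.

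These differences were small against what the arrays could resolve. The 95% intervals of the 49 differences had a median half-width of 0.30 log2 units, from 0.24 to 0.83. For 41 genes the whole interval lay within 0.5 log2 units of 0. The other 8 were TYMS, CDT1, LIG1, CDC7, RFC1, RRM2, POLE and MCM10, whose data leave room for larger differences in one or both directions. The largest fold among the probes that stand for the genes was 1.34 (POLE, lower with miR-511 mimic). The dimmer ORC2 probe gave a larger fold of 1.36, also lower, with a 95% interval of -1.27 to 0.37.

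**Figure D1:**
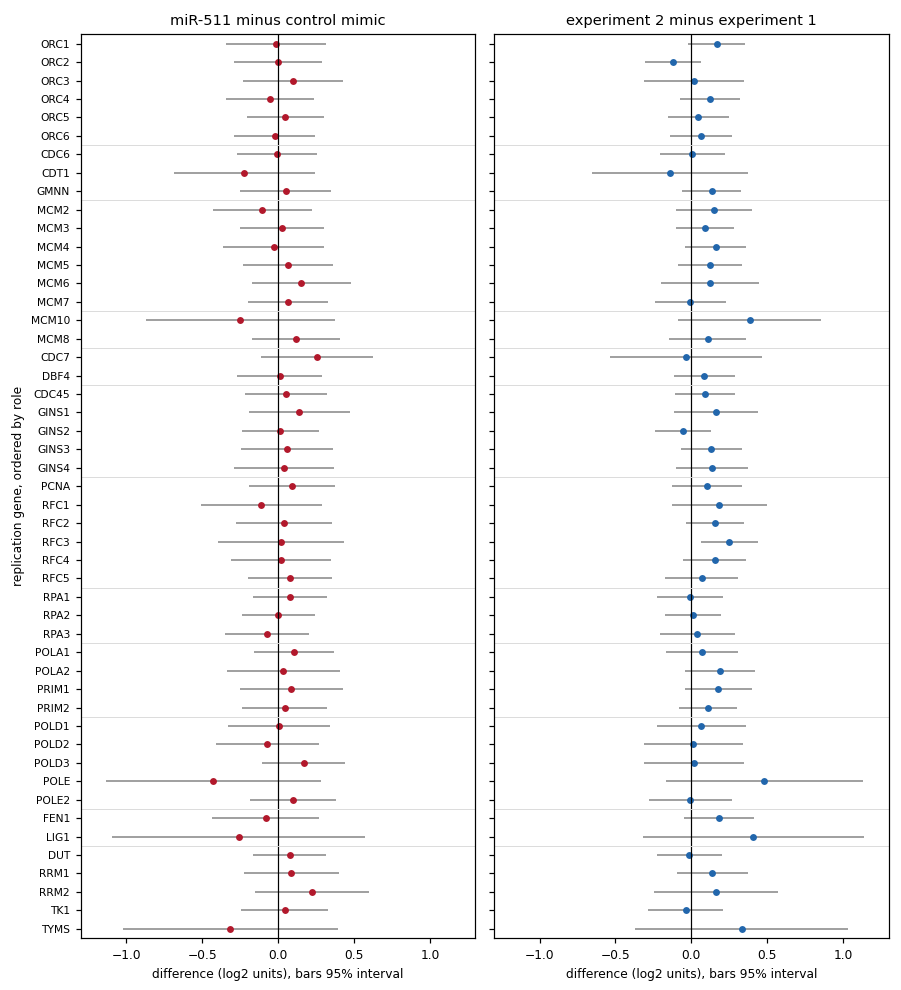
Difference of each of the 49 replication genes on the log2 scale (x axis), for miR-511 minus control mimic on the left and experiment 2 minus experiment 1 on the right, with genes on the y axis ordered by role. Points are the fitted differences and bars the 95% intervals from 2 arrays against 2. All intervals on the left include 0, and on the right only that of RFC3 does not.

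At the start of replication, the 6 subunits of the origin recognition complex, which marks origins, differed between mimics by -0.053 (ORC4) to 0.099 (ORC3), with a median of -0.0085. The dimmer probes of ORC2, ORC4 and ORC5 gave -0.45, 0.13 and -0.36. Those of ORC2 and ORC5 were low on the miR-511 array of experiment 1. ORC6, on a probe printed 10 times, gave 11.25 with miR-511 mimic and 11.21 with control mimic in experiment 1, and 11.25 and 11.34 in experiment 2.

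Of the 3 licensing factors, GMNN (geminin, the inhibitor of CDT1) differed by 0.050 and CDC6 (which helps to load the helicase) by -0.0063. CDT1, the partner of CDC6 in loading the helicase, had log2 intensities of 13.73 with miR-511 mimic and 13.70 with control mimic in experiment 1, and of 13.33 and 13.81 in experiment 2. Its low value was on a single array, miR-511 mimic in experiment 2, and the arrays of the mimics overlapped. The difference was -0.22 ± 0.17 (SE), with a 95% interval of -0.69 to 0.24. With another background correction (normexp) it was -0.41, and CDT1 was the 1 replication gene that passed the unadjusted threshold there, beside 1.17% of all tested probes. Without the miR-511 array of experiment 2 the difference was -0.024. Here and below, leaving out 1 array makes the mimics unequal in experiments, so such values also hold part of the difference between experiments.

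The 6 subunits of the MCM helicase, MCM2 to MCM7, differed by -0.10 (MCM2) to 0.15 (MCM6), and 4 of the 6 were above 0. MCM6 gave 13.85 with miR-511 mimic and 13.59 with control mimic in experiment 1, and 13.87 and 13.82 in experiment 2. Both miR-511 arrays were thus above both control arrays, with a difference of 0.15 ± 0.12 (SE) and a 95% interval of -0.17 to 0.48. MCM7, the subunit gene with a pair of probes that differ in sign, had 0.066 at its brighter and -0.13 at its dimmer probe. With normexp the MCM6 difference turned to -0.0092, and without the control array of experiment 1 it was 0.040.

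Of the remaining MCM proteins, MCM8, which has a role in repair by homologous recombination, differed by 0.12. MCM10, a factor needed to activate the loaded helicase, gave 8.87 with miR-511 mimic and 9.30 with control mimic in experiment 1, and 9.44 and 9.50 in experiment 2. The low value was that of miR-511 mimic in experiment 1. The miR-511 array of experiment 2 lay above the control array of experiment 1, so the groups overlapped, and the difference was -0.25 ± 0.23 (SE), with a 95% interval of -0.87 to 0.38. Without the miR-511 array of experiment 1 it was 0.038, while the pair of arrays within experiment 2 gave -0.062.

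CDC7, the catalytic subunit of the kinase that fires origins, had the largest positive difference. Its log2 intensity was 11.63 with miR-511 mimic and 11.17 with control mimic in experiment 1, and 11.39 and 11.34 in experiment 2. Both miR-511 arrays lay above both control arrays, yet the difference was 0.46 in experiment 1 and 0.051 in experiment 2. The fit gave 0.26 ± 0.14 (SE), with a 95% interval of -0.11 to 0.63, and the difference was 0.040 with normexp and 0.14 without the miR-511 array of experiment 1. Its regulatory subunit DBF4 differed by 0.0099.

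CDC45 and the 4 GINS subunits, which complete the helicase, differed by 0.014 (GINS2) to 0.14, and all 5 differences were above 0. The highest was that of GINS1, with 12.64 and 12.45 in experiment 1 for miR-511 and control mimic, and 12.75 and 12.66 in experiment 2. The control array of experiment 2 was above the miR-511 array of experiment 1, so the mimics overlapped. Its difference was 0.14 ± 0.12 (SE), with a 95% interval of -0.19 to 0.47, and without the control array of experiment 1 it was 0.038.

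PCNA, the sliding clamp of the polymerases, and RFC1 to RFC5, the loader of that clamp, differed by -0.11 (RFC1) to 0.094 (PCNA). The second PCNA probe gave -0.0074. The 3 subunits of RPA, which coats single-stranded DNA, differed by -0.073 (RPA3) to 0.078 (RPA1).

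POLA1, POLA2, PRIM1 and PRIM2, the subunits of DNA polymerase alpha with primase, which start each new strand, differed by 0.036 (POLA2) to 0.11 (POLA1). All 4 values were above 0. The subunits measured of polymerases delta and epsilon, the main copying enzymes, had a wider range, from -0.43 (POLE) to 0.17 (POLD3).

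POLE, the catalytic subunit of polymerase epsilon, gave 8.81 with miR-511 mimic and 9.35 with control mimic in experiment 1, and 9.40 and 9.71 in experiment 2. It was lower with miR-511 mimic in each experiment, by -0.54 and -0.31, but the miR-511 array of experiment 2 lay above the control array of experiment 1. The difference was -0.43 ± 0.26 (SE), with a 95% interval of -1.13 to 0.28, and with 1 array left out it ran from -0.72 to -0.13, the latter without the miR-511 array of experiment 1. With the experiment as a block POLE passed the unadjusted threshold as the only replication gene, where 3.95% of all tested probes passed it, and 0 replication genes passed the adjusted threshold in that fit. Its second and dimmer probe went the other way, with 7.71 and 7.63 in experiment 1, 7.73 and 7.43 in experiment 2 and a difference of 0.19 ± 0.11 (SE). The probe with the higher mean lies at chr12:133202232-133202291 and the second at chr12:133233948-133234007 (hg19, as in the files).

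POLD3, an accessory subunit of polymerase delta, had 11.87 with miR-511 mimic and 11.80 with control mimic in experiment 1, and 11.98 and 11.72 in experiment 2. Both miR-511 arrays lay above both control arrays. The difference was 0.17 ± 0.10 (SE), with a 95% interval of -0.10 to 0.44.

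FEN1, the flap endonuclease that trims Okazaki fragments, differed by -0.082. LIG1, the ligase that joins them, had 12.47 with miR-511 mimic and 12.30 with control mimic in experiment 1, and 12.45 and 13.14 in experiment 2. The control array of experiment 2 stood above the other 3, so that the difference was 0.17 in experiment 1 and -0.69 in experiment 2. The fit gave -0.26 ± 0.30 (SE), with a 95% interval of -1.09 to 0.57, and without that array the difference was 0.16.

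Of the 5 genes for nucleotide supply, RRM2, the small subunit of ribonucleotide reductase, had 10.59 with miR-511 mimic and 10.23 with control mimic in experiment 1, and 10.62 and 10.53 in experiment 2. Its miR-511 arrays did not overlap with the control arrays, and the difference was 0.22 ± 0.14 (SE), with a 95% interval of -0.15 to 0.60. Without the control array of experiment 1 it was 0.075. TYMS, thymidylate synthase, had 14.78 and 15.46 in experiment 1 for miR-511 and control mimic, and 15.48 and 15.43 in experiment 2. A single array, miR-511 mimic in experiment 1, was low, and the difference of -0.31 ± 0.26 (SE) became 0.036 without it. RRM1, the large reductase subunit, DUT, which removes dUTP, and TK1, thymidine kinase, differed by 0.043 (TK1) to 0.088 (RRM1).

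**Figure D2:**
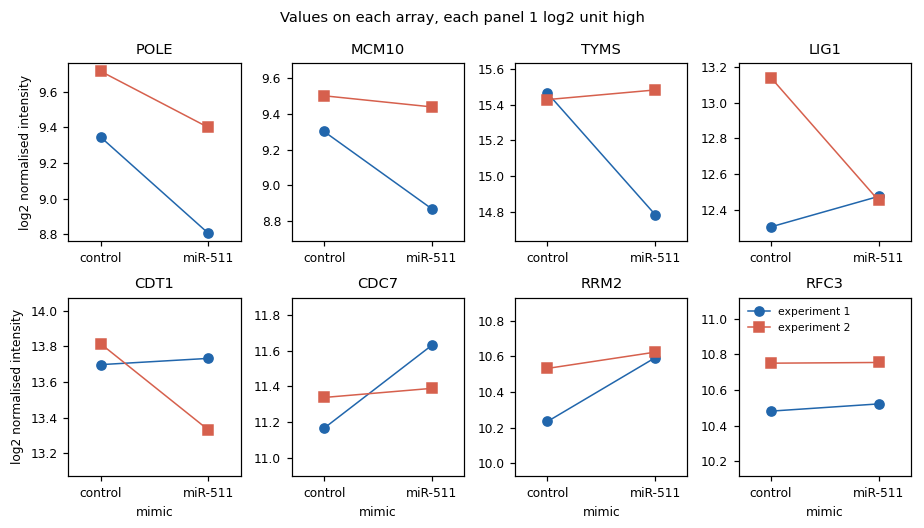
Log2 normalised intensity (y axis, each panel 1 log2 unit high, on its own range) of 8 replication genes with control and miR-511 mimic (x axis). Circles joined by a line are experiment 1 and squares experiment 2, each point 1 array. In TYMS, LIG1, MCM10 and POLE a single array lies more than 0.4 log2 units beyond the nearest of the others. The lines cross in TYMS, LIG1, CDT1 and CDC7. In RFC3 both lines are nearly flat and experiment 2 lies above experiment 1.

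By the order of the arrays alone, 10 of the 49 genes (20.4%) had both miR-511 arrays above both control arrays, and 0 had both below. Over all tested probes these shares were 15.6% and 10.1%. By probe, 14 of the 63 had both above and 2 had both below, the dimmer probes of ORC2 and RPA2. The 10 genes were CDC7, DUT, MCM6, MCM8, ORC5, POLA1, POLD3, RFC5, RPA1 and RRM2. An exact permutation test of 2 arrays against 2 cannot go below a two-sided p of 0.333.

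The mimic difference of a gene in experiment 1 told little of that in experiment 2. Across the 49 genes, which are not independent and share the arrays, the correlation was 0.065, and over all tested probes it was 0.038. Both experiments had the same sign for 26 genes (53.1%), 21 of them higher and 5 lower (FEN1, MCM10, MCM2, ORC4 and POLE). Over all tested probes 51% had the same sign. Within experiment 1 the median was 0.051 with 38 genes above 0, where 57.8% of all probes were above 0. Within experiment 2 it was 0.021 with 27 genes above 0, against 49.8%.

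**Figure D3:**
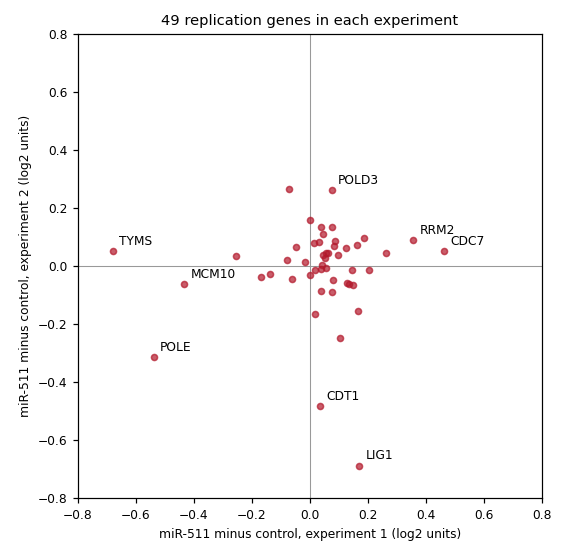
Difference between miR-511 and control mimic of each of the 49 replication genes in experiment 1 (x axis) and in experiment 2 (y axis), in log2 units, 1 point a gene, without replicates inside an experiment. Most genes lie close to 0, TYMS and CDC7 differ along the x axis, CDT1 and LIG1 along the y axis, and POLE is lower in both.

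The second comparison sets experiment 2 against experiment 1, with 1 array of each mimic on each side, and shows how far the replication genes varied between the experiments. The genes lay mostly on one side. The difference was above 0, that is higher in experiment 2, for 40 of the 49 genes and below 0 for 9, with a median of 0.11 and a range of -0.14 to 0.48 on the log2 scale. Over all tested probes the median was -0.0093, and 47.6% were above 0. Few differences passed the threshold: 1 gene (2.04%) was called higher at an unadjusted p below 0.05 and 0 lower, where 5.42% of all probes were called higher and 8.15% lower. After adjustment 0 genes were higher and 0 lower, as for all probes (0% and 0%), and the lowest adjusted p of a replication gene was 0.303 (RFC3).

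By the order of the arrays, 24 genes (49%) had both arrays of experiment 2 above both of experiment 1, where 22.4% of all tested probes did. Only GINS2 and ORC2 (4.08%) had both below, where 26.4% of all probes did. The 24 genes were CDC45, DBF4, FEN1, GINS1, GINS3, GINS4, GMNN, MCM2, MCM3, MCM4, MCM5, MCM10, ORC1, ORC4, PCNA, POLA2, POLE, PRIM1, PRIM2, RFC1, RFC2, RFC3, RFC4 and RRM1. Their differences were between 0.085 (DBF4) and 0.48 (POLE).

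**Figure D4:**
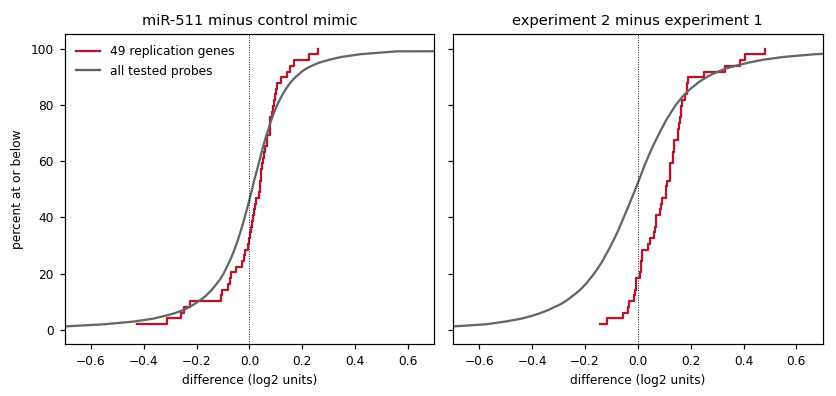
Percent of the 49 replication genes (red steps) and of all 22638 tested probes (grey line) at or below a given difference in log2 units (x axis), for miR-511 minus control mimic on the left and experiment 2 minus experiment 1 on the right. On the right the red steps lie to the right of the grey line over most of their height, with medians of 0.11 and -0.0093, and on the left the medians are 0.038 and 0.0098.

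RFC3, a subunit of the clamp loader, was the gene that passed the threshold. Its log2 intensity was 10.52 with miR-511 mimic and 10.48 with control mimic in experiment 1, and 10.75 with both mimics in experiment 2. The arrays of the experiments did not overlap, and those of the mimics within an experiment lay close together. The difference was 0.25 ± 0.067 (SE), a 1.19-fold higher level in experiment 2, with adjusted p = 0.303. Its second probe gave 10.004 and 10.005 in experiment 1 and 10.27 and 10.31 in experiment 2, a difference of 0.29 ± 0.067 (SE) that also passed the unadjusted threshold. The probes lie at chr13:34410688-34410747 and chr13:34409294-34409353 (hg19). RFC3 did not pass the unadjusted threshold in any of the 4 fits that left out 1 array, where its difference was 0.23 to 0.27.

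By role, the sliding clamp and its loader had all 6 genes above 0, by 0.067 (RFC5) to 0.25. Polymerase alpha with primase had all 4 above 0, by 0.069 (POLA1) to 0.19 (POLA2). Of the MCM helicase 5 of 6 were above 0, up to 0.16 (MCM4), and MCM7 was at -0.0065. CDC45 and GINS had 4 of 5 above 0, and the exception was GINS2 with -0.055. PRIM1, the catalytic subunit of primase, measured by a probe printed 10 times, had 11.46 and 11.37 in experiment 1 and 11.64 and 11.55 in experiment 2 for miR-511 and control mimic. The difference between experiments was 0.18 with each mimic, with a 95% interval of -0.043 to 0.40 in the fit.

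The origin recognition complex had 5 of 6 genes above 0, up to 0.17 (ORC1). ORC2 had 9.26 and 9.28 in experiment 1 and 9.16 and 9.14 in experiment 2, a difference of -0.12 ± 0.066 (SE) with a 95% interval of -0.30 to 0.066, and its arrays did not overlap. Its second, dimmer probe gave 0.42, with 7.25 on the miR-511 array of experiment 1 and 8.08 to 8.12 on the others. GINS2 had 12.14 and 12.10 in experiment 1 and 12.06 and 12.07 in experiment 2, with a 95% interval of -0.24 to 0.13 for the difference.

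RPA lay between -0.012 (RPA1) and 0.038 (RPA3), the narrowest range of the 12 roles. RPA2 was nearly level over the 4 arrays, with 12.24 and 12.22 in experiment 1 and 12.24 and 12.25 in experiment 2. Of the nucleotide genes, TK1 gave 16.40 and 16.25 in experiment 1 and 16.25 and 16.32 in experiment 2, so that its difference of -0.038 hides opposite signs with the mimics, -0.15 with miR-511 mimic and 0.069 with control mimic. CDC7 had -0.24 and 0.17 in the same order, and -0.034 in the fit. CDT1 had the lowest value, -0.14 ± 0.18 (SE), with -0.40 with miR-511 mimic and 0.12 with control mimic.

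The largest positive differences came with wide intervals. POLE differed by 0.48 ± 0.23 (SE), LIG1 by 0.41 ± 0.26, MCM10 by 0.39 ± 0.17 and TYMS by 0.33 ± 0.25, and the 95% interval of each included 0. Without the miR-511 array of experiment 1 the differences of POLE, MCM10 and TYMS were 0.21, 0.17 and -0.0091, and without the control array of experiment 2 that of LIG1 was 0.063. POLE and MCM10 were higher in experiment 2 with each mimic. The LIG1 value came from control mimic (0.84, against -0.022 with miR-511 mimic), and the TYMS value from miR-511 mimic (0.70, against -0.036). With the mimic as a block 2 genes were called, RFC3 and POLE, at the unadjusted threshold, which 11.6% of all tested probes passed in that fit. With normexp 12 genes passed it, all higher in experiment 2, beside 14.0% of all tested probes called in either direction.

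With each mimic taken alone, 34 genes were above 0 with miR-511 mimic (median 0.089), where 44.1% of all probes were. With control mimic 41 were above 0 (median 0.12), where 50.5% of all probes were. Both mimics gave the same sign for 32 genes (65.3%, all probes 62.6%), with 29 higher and 3 lower (DUT, GINS2 and ORC2). The size of the difference with one mimic did not follow that with the other, with a correlation of 0.0098 across the 49 genes, while over all tested probes it was 0.27.

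The control array of experiment 1 was the lowest of the 4 for 29 of the 49 genes, where 25.5% of all tested probes had their lowest value. The miR-511 array of experiment 2 was the highest for 24 genes (21.6% of all probes) and the control array of experiment 2 for 18 (25% of all probes). Without the control array of experiment 1, 34 genes were still above 0 between experiments, with a median of 0.062. Between mimics the count was 21 of 49 and the median -0.012 without that array, where the experiments are no longer balanced between the mimics. Within experiment 2 alone, 27 genes were above 0 between mimics, with a median of 0.021. The part of that array in the 33 genes above 0 with all 4 arrays was not tested further.

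**Figure D5:**
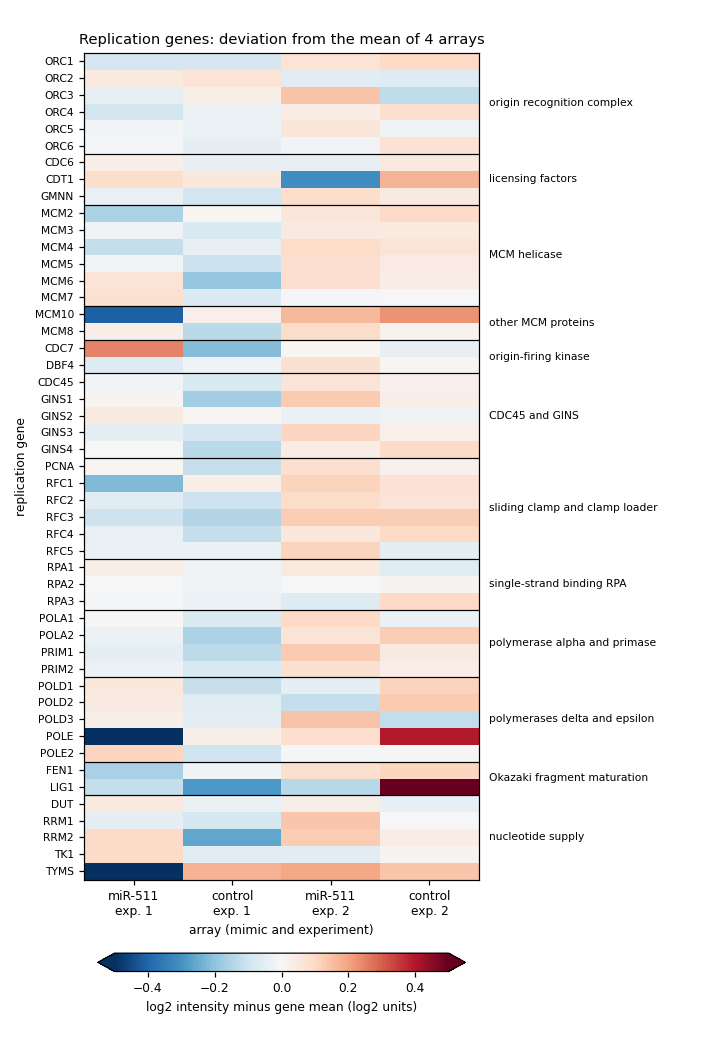
Log2 intensity of each of the 49 replication genes (rows, grouped by role) on each of the 4 arrays (columns) minus the mean of the gene over the arrays, in log2 units, with the colour scale ending at -0.5 and 0.5. Both arrays of experiment 2 are mostly above the mean (medians 0.067 with miR-511 and 0.042 with control mimic). The control array of experiment 1 is mostly below it (median -0.069), and the miR-511 array of experiment 1 lies on both sides (median -0.013). TYMS, POLE, MCM10, LIG1 and CDT1 have the strongest single cells.

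A probe with 1 array more than 0.4 log2 units beyond the nearest of the other 3 was seen for 6 of the 63 probes (9.52%), against 7.06% of all tested probes. Low on the miR-511 array of experiment 1 were the brighter POLE probe, TYMS, MCM10 and the dimmer probes of ORC2 and ORC5. Over all tested probes 2.72% were low on that array by this measure, more than on any other array. LIG1 was high on the control array of experiment 2. These arrays also carry the mimic contrast, and the part of 1 array in these differences was not tested beyond leaving it out.

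Of the 13 genes with several probes, 6 had the same sign at all of them between mimics and 7 between experiments. For the mimics MCM7, ORC4, ORC5, PCNA, POLE, RFC3 and RPA2 differed in sign between probes. For the experiments DBF4, DUT, MCM7, ORC2, POLE and RPA2 did. The gap between probes was largest for POLE, 0.61 between mimics and 0.57 between experiments, and it was 0.45 and 0.53 for ORC2. For MCM5 the probes differed by 0.0043 and 0.0044.

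The difference between genes with and without an E2F word was not tested. Between experiments the 22 genes with a word had a median of 0.11, as did the 21 without, and 16 and 18 of them were above 0. Between mimics the medians were 0.054 and 0.018, with 16 and 13 genes above 0.

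A further list of 47 genes of replication and S phase, such as histone chaperones, checkpoint mediators and cyclins, had 46 on the array, and all 46 were tested. Between mimics 0 passed the unadjusted threshold in either direction, where 1.27% of all tested probes were called higher and 0.932% lower, and the median was 0.038. Between experiments 2 passed that threshold, both higher in experiment 2, and 0 were lower. Over all tested probes 5.42% were called higher and 8.15% lower. The median was 0.043, with 29 of the 46 genes above 0, where 47.6% of all tested probes were. UHRF1, which helps to copy DNA methylation at the fork, differed by 0.27 ± 0.068 (SE) with adjusted p = 0.293, and its second probe by 0.21.

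Of 10 markers of THP1 cells, 9 were on the array under their names and 8 were tested, all 8 well above background on all arrays. Between experiments 7 of these 8 were below 0 (median -0.11), where 47.6% of all tested probes were above 0. PTPRC (-0.30 ± 0.11, SE) and CSF1R (-0.25 ± 0.076) passed the unadjusted threshold, where 8.15% of all tested probes were called lower. Their adjusted p in limma was 0.367 and 0.336. The other, dimmer PTPRC probes gave -0.21 to -0.030 and did not pass the unadjusted threshold. MEIS1 was on the array but was not tested. The summed intensity of the 9 THP1 markers on the array was 75845 to 85820 on the 4 arrays. Of 10 markers of other cell types 6 were not above background on any array, and the summed intensity of the 10 was 460 to 519. The part of the marker levels in the differences between experiments was not tested.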

How the data were processed

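THP1 RNA was hybridized to Agilent Human Whole Genome 4x44K v2 arrays, with 2 arrays per mimic. One scanner file per array was used, made with Agilent Feature Extraction (version 10.7.3.1 in the file headers and 10.5.1.1 in the submitters' processing notes). The processed intensity in it, as deposited, had its background subtracted, with no scaling from array to array. A second table, of log2 values that the authors had quantile normalized, served as an alternative. Annotation is hg19 per the file headers, and RefSeq symbols of GRCh38.p14 matched all 63 probes by accession.

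The log2 of the processed intensity of 43118 non-control spots was taken without 232 to 301 marked outlier spots per array, quantile normalized and averaged by probe. Probes that both arrays of a mimic measured well above background (for a probe printed 10 times, on more than 50% of spots) were tested, which gave 22638 of 34127 probes. Per array 64.8% to 69.3% of probes were well above background, and no spot was saturated. The number of arrays limits the precision. limma 3.58.1 in R 4.3.3 (lmFit, eBayes, two-sided, 4.14 total degrees of freedom) fitted all tested probes for each comparison with no further term, with Benjamini-Hochberg adjustment over all of them. The fit was tested on simulated data.

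The array titles give the experiment, which pairs the arrays. Deviations of same-experiment arrays from the mimic means had a correlation of 0.271 over all tested probes and 0.0098 over the 49 genes. The fit with the experiment as a block was an alternative, beside those given in the closing section.

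Values per array are given for genes past the unadjusted threshold and for the 5 largest differences in each direction and comparison, and genes whose probes differ in sign or call are named. PRIM1, ORC6 and RPA2 are added for contrast, chosen after their values were seen. The genes, lists and tests were chosen with earlier results of these data known. The values of 1 gene of the further list are not reported here.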

Additional observations from a re-analysis of the deposited data

How the results depend on the processing

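The number of replication genes past the adjusted threshold was 0 in both comparisons under each alternative run. The number of replication genes past the unadjusted threshold between mimics was 0, and 1 with normexp background correction (CDT1, all probes 1.17%), with the replicate block (POLE, 3.95%) and with a plain equal-variance test (DUT, 3.13%). Between experiments it was 1, and 2 with the replicate block (all probes 11.6%), 2 with every tested probe counted (13.6%), 5 with an intensity trend (14.6%), 12 with normexp (14.0%) and 4 with the plain test (11.3%). Leaving out each array gave 0 to 3 between mimics and 1 to 4 between experiments, and the lone array left was assumed to vary like the others. All probes past it were then 2.28% to 6.09% and 8.23% to 14.2%. The 3 were POLE, TYMS and MCM10 without the miR-511 array of experiment 2, and the 4 were TYMS, RFC1, POLE and MCM10 without the control array of experiment 1. The median difference then ran from -0.012 to 0.088 between mimics and from 0.062 to 0.13 between experiments. Genes above 0 between mimics numbered 21 to 39 of 49 with an array left out. Between experiments they numbered 34 to 44 over the alternatives by gene. This count, that of genes whose arrays did not overlap and the adjusted count between mimics were added after seeing the data.

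Some genes changed sign between settings, most of all with 1 array left out, and the cause was not tested. TK1 between experiments was 0.020 with 75th percentile scaling. With normexp, MCM6 between mimics was -0.0092, CDT1 between experiments 0.12 and CDC7 0.29. With 1 array left out, values between mimics ran from -0.66 to 0.036 for TYMS, from -0.53 to 0.038 for MCM10 and from -0.68 to 0.16 for LIG1. Between experiments they ran from -0.38 to 0.10 for CDT1, from -0.11 to 0.037 for TK1, from -0.27 to 0.20 for CDC7 and from -0.0091 to 0.67 for TYMS. With 2 arrays a group, the 95% intervals had median half-widths of 0.30 log2 units between mimics and 0.23 between experiments. Smaller differences could mostly not be resolved.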
